A study of Rattus norvegicus with 6 samples.

Results

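Transcripts of glutathione, thioredoxin and other antioxidant enzymes were measured in kidneys of adult male rats of a pair of strains on Affymetrix 1-colour arrays, with 1 array per rat. The S group was 3 inbred Dahl salt-sensitive rats (SS/Jr), a strain that becomes hypertensive. The congenic group was 3 S.LEW(D1MCO4x1x3Bx1) rats, which carry a Lewis (LEW) segment of chromosome 1 on the S background. By design both groups share the S genome elsewhere and differ by a whole donor segment rather than a single allele. The genomes of these rats were not examined here. Age in weeks, salt intake and blood pressure of these rats are not given in the labels used here. The members were chosen by platform gene symbol: probe sets with exactly 1 symbol that was on a list of 32 antioxidant genes or began with Gsta, Gstm, Gstk, Gsto, Gstp, Gstt, Gstz or Mgst, with the probe set of highest mean over the 6 arrays taken for each gene. This gave 54 genes of the 14217 with a probe set of 1 symbol: 31 of the 32 listed genes and 23 glutathione S-transferase genes. The listed gene not found was Prdx1, because no probe set carries it as its only symbol. In all, 33 genes were placed in the glutathione branch, 12 in the thioredoxin branch and 9 in a group of other antioxidant genes.

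Cells keep their proteins and lipids reduced through a pair of parallel systems that both draw on NADPH. In the glutathione system, the tripeptide glutathione is made from glutamate, cysteine and glycine, is oxidised by glutathione peroxidases as they remove peroxides, and is joined to reactive compounds by glutathione S-transferases. In the thioredoxin system, thioredoxin reductase keeps the small protein thioredoxin reduced, and thioredoxin in turn recharges peroxiredoxins and methionine sulfoxide reductases. Superoxide dismutases convert superoxide to hydrogen peroxide, which catalase, the peroxidases and the peroxiredoxins remove. The kidney, above all its proximal tubule, takes up, breaks down and resynthesises glutathione, and it secretes the plasma glutathione peroxidase. Many genes of both systems are targets of the transcription factor NRF2 (encoded by Nfe2l2), which is held in check by KEAP1 and binds the antioxidant response element.

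The letters TGACNNNGC, the core of that element, were searched on both strands in promoter windows of 300 bases (250 before and 50 after the start site) from RefSeq, build GRCr8. They were found in 12.1% of all 33469 windows. Of the 54 members, 45 had a window in the table, 51 windows in all, and 12 of these windows (23.5%), from 12 genes, held the letters. The letters TGANTCA, an AP-1 type motif that can overlap the former, were found in 7.33% of all windows and in 6 windows of members. The stretches around the match, up to 40 bases on either side and ending at the start site, are shown for the 4 members with a match wholly before the start site and whose values are given rat by rat below. Each reads 5′ to 3′ on the strand of its gene, and the capitals mark the match. The match in Gstp1, which begins 61 bases before the start, overlaps TGANTCA (chr1:210769718-210769806, minus strand). The match in Gclm begins 172 bases before the start (chr2:213031923-213032011, plus strand), that in Txnrd1 78 bases before 1 of its listed starts (chr7:22755934-22756022, minus strand), and that in Sod2 35 bases before the start (chr1:50050169-50050243, minus strand). In the latter 3 the core lies on the opposite strand.
Gstp1: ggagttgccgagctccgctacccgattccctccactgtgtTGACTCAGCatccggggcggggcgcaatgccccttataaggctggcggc
Gclm: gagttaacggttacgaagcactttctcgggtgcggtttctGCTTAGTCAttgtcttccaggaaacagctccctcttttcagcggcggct
Txnrd1: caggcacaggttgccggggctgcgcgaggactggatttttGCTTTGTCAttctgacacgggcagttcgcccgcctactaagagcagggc
Sod2: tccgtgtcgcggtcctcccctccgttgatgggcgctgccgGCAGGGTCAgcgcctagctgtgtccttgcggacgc
The Gstp1 and Txnrd1 signals described below were on average higher in congenic kidneys, and those of Gclm and Sod2 were on average lower. All 12 genes with a match lay above the signal filter, and 5 of them had a positive and 7 a negative difference between strains. A match describes the letters of the window alone.

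Of the 54 genes, 48 lay above the filter on low signals, which was a mean log2 value above the median of all probe sets, or a signal of about 165. No member passed limma's adjusted p of 0.05 (Benjamini-Hochberg), nor did any of the 15521 probe sets tested (0%). The smallest adjusted p of a member was 0.21, that of Naxd. At unadjusted p below 0.05, limma gave 6 members of 48 (12.5%), against 10.3% of all probe sets tested, a share near the background in this fit. They were Gss, Gstp1, Txnip and Naxd with higher congenic signals (4.72% of all probe sets tested were higher) and Gstm2 and Sod2 with lower congenic signals (5.61% were lower). All 3 congenic values lay above all 3 S values for 5 members of 48, against 7.98% of probe sets tested, and below them for 3, against 7.99%. The count of 6 was 10 of 48 after quantile normalisation or cyclic loess (4 up and 6 down), against 9.7% of all probe sets tested. With median centring it was 14 (13 up and 1 down), against 12.0%, and with array weights 8 (4 and 4), against 11.3%. Leaving out S replicate 1 gave 10, against 12.5%, and leaving out congenic replicate 1 gave 13, against 10.8%. Leaving out congenic replicate 3, or the variance trend, gave 4, against 8.14% and 9.23%. Of these 6, Gss, Gstp1 and Sod2 were in the count under all 17 alternatives, Naxd under 16, Txnip under 11 and Gstm2 under 10. Other members joined it under some alternatives. Among them, Gclm and Prdx6, both lower, did so after quantile normalisation, after cyclic loess and with array weights. Both also joined it without S replicate 1 and without congenic replicate 1.

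**Figure D1:**
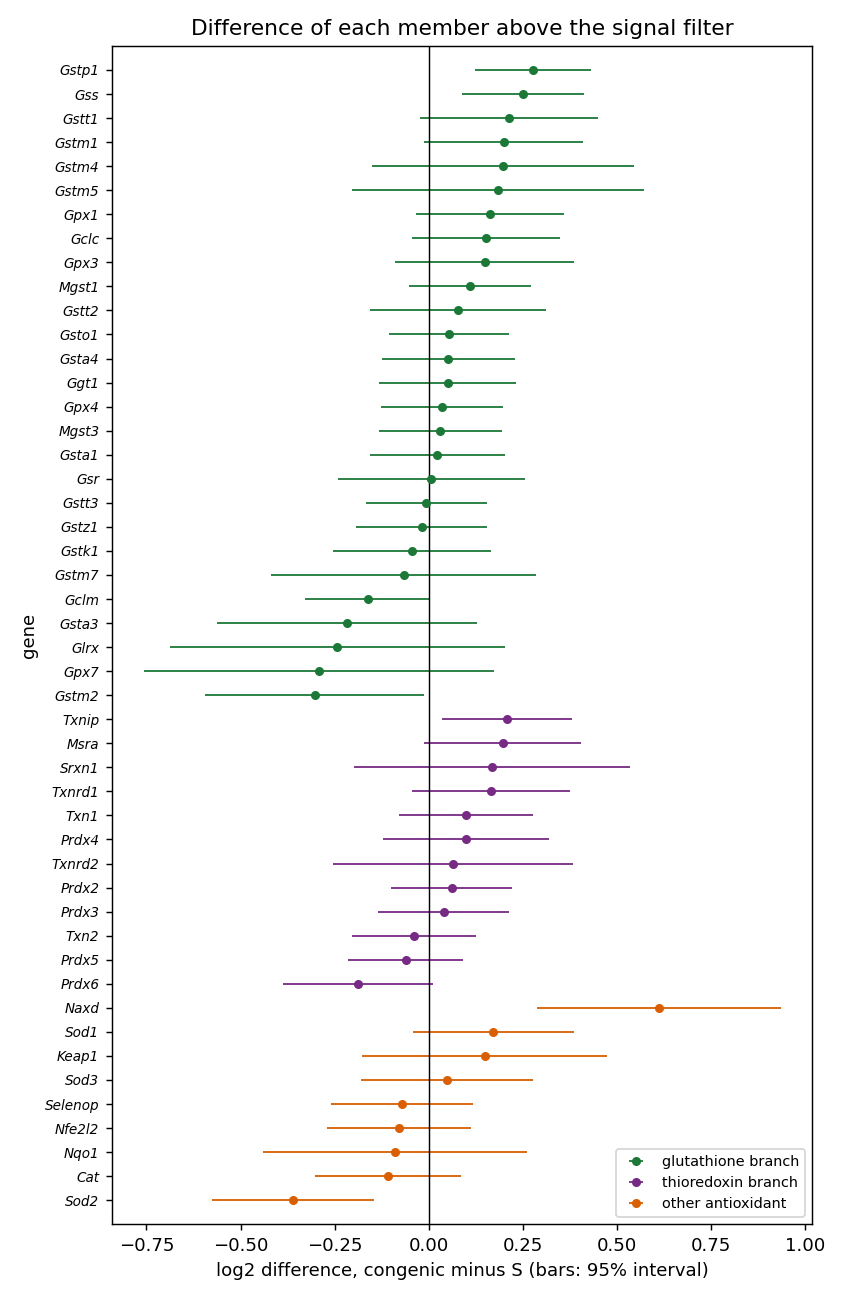
Log2 difference between 3 congenic and 3 S kidneys (x axis) for each of the 48 genes above the signal filter (y axis), with the 95% interval from limma as bars and colours for the 27 glutathione, 12 thioredoxin and 9 other antioxidant genes. Naxd lies farthest to the right at 0.61 and Sod2 farthest to the left at -0.36 among the points, and the bars of all but 6 genes cross 0.

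The precision was high enough to bound most differences. The 95% interval of the log2 difference lay within a 1.5-fold change in either direction for 44 of the 48 members, and within a 2-fold change for all 48. Of all 15521 probe sets tested, the counts were 11411 and 15136. The intervals take the reported scaling as given and do not include the choice of scaling. The standard error of a member's log2 difference ran from 0.071 to 0.22, with a median of 0.095. The median over all probe sets tested was 0.14. Of the 48 members, 15 changed the sign of their log2 difference under at least 1 of 3 other scalings of the arrays (quantile normalisation, cyclic loess, median centring), and 14 of these had a value within 0.1 of 0 as reported. They were Ggt1, Gpx3, Gpx4, Gsta1, Gsta4, Gstk1, Gstm7, Gsto1, Gstt3, Gstz1, Mgst3, Txn2, Prdx3, Prdx5 and Sod3, and the other 33 kept their sign. In whole kidney, fewer cells of a type and less RNA per cell cannot be told apart. By the 2-sided exact permutation test, 3 rats against 3 cannot go below p = 0.1, and the 8 members whose groups did not overlap, and that lay above the filter, all had that value.

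In glutathione synthesis, Gss read higher in congenic kidneys and the ligase modifier gene Gclm read lower. Gss encodes glutathione synthetase, which adds glycine in the last step. Its signals were 5873, 6281 and 5904 in the S rats and 7500.2, 7137 and 6852 in the congenic rats. Every congenic rat lay above every S rat. The means were 6019 ± 227 (SD, n = 3) and 7163 ± 325 (SD, n = 3), a fold of 1.19, and the log2 difference was 0.25 (SE 0.076; limma, unadjusted p = 0.00486, adjusted p = 0.279). The step before it is catalysed by glutamate-cysteine ligase, whose catalytic subunit is encoded by Gclc and whose modifier subunit is encoded by Gclm. Gclc read 26992, 23173 and 28817 in S rats and 26986, 30022 and 30480.5 in congenic rats, which overlapped, with a log2 difference of 0.15 (95% interval -0.045 to 0.35). It was 0.062 without S replicate 2, 0.21 without congenic replicate 1 (unadjusted p = 0.0425, limma), 0.050 after quantile normalisation and 0.060 after cyclic loess. Gclm read 12949, 13502 and 14539 in S rats and 12870.2, 12000.5 and 11748 in congenic rats. All congenic values of Gclm lay below all S values, in the direction opposite to Gss, with little room between the highest congenic and the lowest S value. Its log2 difference was -0.16 (95% interval -0.33 to 0.00428; limma, unadjusted p = 0.0554, adjusted p = 0.493). Without S replicate 1 or without congenic replicate 1 its log2 difference was -0.20, at unadjusted p = 0.0350 and 0.0260 (limma).

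The genes that recycle and break down glutathione overlapped between strains. Gsr, the reductase that restores glutathione with NADPH, read 1143, 1103 and 1167 in S rats and 1364, 1049 and 1046 in congenic rats. Congenic replicate 1 was the highest of the 6 rats and the other 2 congenic rats were the lowest. The log2 difference of Gsr was 0.00751 (95% interval -0.24 to 0.26) and turned negative without S replicate 2 (-0.015) or without congenic replicate 1 (-0.12). It also did so with a block for the leading number in the array titles (-0.027). This title number block set arrays numbered under 10 against the others, a split chosen here, and the labels do not give the meaning of the number. Ggt1, the brush border enzyme that opens the breakdown of extracellular glutathione, had a mean of 17408 ± 1646 in S and 17989 ± 965 in congenic rats; its difference turned negative after quantile normalisation and cyclic loess. Glrx, glutaredoxin, which removes glutathione from protein thiols, had means of 438 ± 105 and 370.1 ± 89.8. A further probe set of Glrx went the other way, with a log2 difference of 0.29 against -0.24, and both intervals included 0.

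None of the 4 glutathione peroxidase genes passed at unadjusted p 0.05 with all 6 rats. With median centring Gpx1 and Gpx3 did. Gpx1, the cytosolic selenium-dependent peroxidase, read 20852, 17689 and 20492 in S rats and 19784, 22309 and 24063 in congenic rats. Congenic replicates 2 and 3 were the highest of the 6 rats, and congenic replicate 1 lay among the S rats. Its log2 difference was 0.16 (95% interval -0.034 to 0.36), and 0.079 after cyclic loess. It ran from 0.089 without S replicate 2 (0.098 without congenic replicate 3) to 0.24 without congenic replicate 1, where its unadjusted p was 0.0172 (limma). Gpx3, the secreted form that proximal tubule cells release into plasma, read 54434, 40862 and 48136 in S rats and 46102, 53828 and 58759 in congenic rats. Only congenic replicate 3 lay above the S range. Its log2 difference was 0.15 (95% interval -0.090 to 0.39), and it was -0.00801 after quantile normalisation. It was 0.040 without S replicate 2 and 0.069 without congenic replicate 3, but 0.25 without S replicate 1 and 0.24 without congenic replicate 1, where its unadjusted p was 0.0471 and 0.0357 (limma). Gpx4, which reduces lipid hydroperoxides within membranes, read 10969, 11741 and 12354 in S rats and 11705, 12218 and 11961 in congenic rats. All congenic values of Gpx4 lay within the S range, and the log2 difference of 0.035 had a 95% interval of -0.13 to 0.20. Its sign turned after quantile normalisation (-0.014), after cyclic loess (-0.035) and without S replicate 1 (-0.010). Gpx7, a peroxidase of the endoplasmic reticulum, had means of 313 ± 28.3 and 263 ± 80.6.

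Glutathione S-transferases couple glutathione to electrophiles. Of 23 such genes, 17 lay above the filter. Of these, 11 had a positive and 6 a negative log2 difference with a median of 0.052, but after quantile normalisation 8 were positive and 9 negative (median -0.00907), after cyclic loess 7 and 10 (-0.00634), and with median centring 15 and 2 (0.12). Gstp1, the pi class enzyme, had the smallest unadjusted p of the whole glutathione branch. Its signals were 7703, 7442 and 7694 in S rats and 9449.8, 8946 and 9309 in congenic rats, so that the groups were separated by more than the range of either. The means were 7613 ± 149 (SD, n = 3) and 9235 ± 260.1 (SD, n = 3), a fold of 1.21 and a log2 difference of 0.28 (SE 0.072; limma, unadjusted p = 0.00163, adjusted p = 0.226). Over the 17 alternatives its log2 difference ran from 0.22 to 0.35. The promoter stretch of this gene is the first of those shown above.

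Among the mu class genes the differences went both ways. Gstm2 read 1439, 1226 and 1549 in S rats and 1378, 1143 and 925 in congenic rats. Congenic replicate 1 lay inside the S range and congenic replicates 2 and 3 below it. The log2 difference of Gstm2 was -0.30 with a standard error of 0.14 (limma, unadjusted p = 0.0427, adjusted p = 0.472), and without congenic replicate 3 it was -0.16. Leaving out S replicate 1, S replicate 3 or congenic replicate 2 also brought its unadjusted p above 0.05. Gstm1 read 975, 1071 and 1046 in S rats and 1223, 1136 and 1193 in congenic rats, with every congenic rat above every S rat, and its log2 difference was 0.20 (95% interval -0.011 to 0.41; unadjusted p = 0.0617 by limma). The other mu class genes above the filter were Gstm4 with a log2 difference of 0.20, Gstm5 with 0.18 and Gstm7 with -0.067 (0.00409 with median centring), and the smallest unadjusted p of these 3 was 0.247 (limma). Mu class genes are close paralogs, and a probe set of 1 of them may also bind the transcripts of another.

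The theta class gene Gstt1 read 1184, 1426 and 1086 in S rats and 1396, 1364 and 1498 in congenic rats. S replicate 2 lay within the congenic range while the other 2 S rats lay below it, and the log2 difference was 0.21 (95% interval -0.024 to 0.45). It was 0.32 without S replicate 2 (unadjusted p = 0.0112, limma) and 0.13 without S replicate 3. Gstt2 had 0.078, and Gstt3 had -0.00636, or 0.064 with median centring. The alpha class genes Gsta1, Gsta4 and Gsta3 had log2 differences of 0.023, 0.052 and -0.22, the former pair turning negative after cyclic loess. Narrow intervals around 0 were obtained for Gstz1, the maleylacetoacetate isomerase of tyrosine breakdown (-0.19 to 0.16), for the omega class gene Gsto1 (-0.11 to 0.21) and for Gstt3 (-0.17 to 0.15). The mitochondrial and peroxisomal kappa class gene Gstk1 had -0.044, or 0.027 with median centring. The microsomal genes Mgst1 and Mgst3 had 0.11 and 0.031, the latter turning to -0.047 after quantile normalisation.

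Below the filter lay Gsta3l1, Gstm3, Gstm6l, Gsto2, Gstp3 and Mgst2, whose mean signals in S rats lay between 16.5 and 144. Without detection calls these signals could not be told from background. No difference is given for them.

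**Figure D2:**
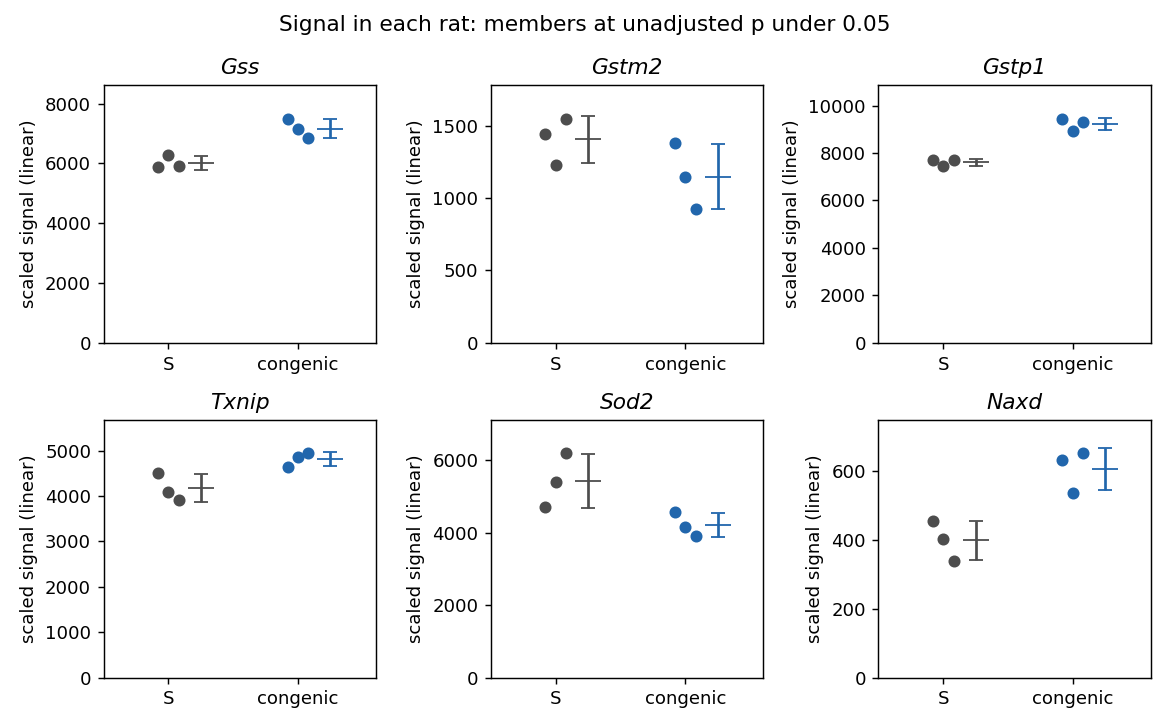
Scaled signal on a linear axis from 0 (y axis) in the 3 S and 3 congenic kidneys (x axis) for the 6 members at unadjusted p below 0.05, with 1 point per rat and the mean ± SD to its right. The groups do not overlap for Gss, Gstp1, Txnip, Sod2 and Naxd, whereas 1 congenic rat lies within the S range for Gstm2.

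In the thioredoxin branch all 12 genes lay above the filter, 9 with a positive and 3 with a negative log2 difference. Of the 12, 1 (8.33%) had an unadjusted p below 0.05 in limma, against 10.3% of all probe sets tested. Under the other 3 scalings 8 to 11 were positive. That gene was Txnip, which encodes a protein that binds thioredoxin and blocks its activity and whose transcript is induced by glucose. Txnip read 4508, 4087 and 3913 in S rats and 4634, 4865 and 4940.4 in congenic rats. Every congenic rat lay above every S rat, but the gap between the lowest congenic and the highest S rat was smaller than the spread of the S rats. The means were 4169 ± 306 (SD, n = 3) and 4813 ± 159 (SD, n = 3), and the log2 difference was 0.21 (SE 0.081; limma, unadjusted p = 0.0209, adjusted p = 0.395). Leaving out S replicate 2, S replicate 3, congenic replicate 2 or congenic replicate 3 brought its unadjusted p above 0.05, and so did a fit with no variance trend. With the title number block the adjusted p was 0.531 (limma) and the unadjusted p was 0.0504.

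The thioredoxins and their reductases overlapped between strains. Txn1, the cytosolic thioredoxin, read 22863, 21962 and 21453 in S rats and 21309.6, 24469 and 25418 in congenic rats. Congenic replicates 2 and 3 were the highest and congenic replicate 1 the lowest of the 6 rats. Congenic replicates 2 and 3 were also the highest for Gpx1 and Sod1. The same held for Slc3a1, Slc34a1, Fbp1 and Umod, bright genes from the segment markers below, but not for Miox or Aqp1. This order of rats was therefore not particular to antioxidant genes. The log2 difference of Txn1 was 0.10 (95% interval -0.079 to 0.28), but 0.013 after cyclic loess, 0.048 without congenic replicate 3 and 0.18 without congenic replicate 1 (unadjusted p = 0.0367, limma). Txnrd1, the cytosolic reductase, a selenoprotein, read 2693, 2073 and 2241 in S rats and 2585, 2578 and 2645 in congenic rats. The congenic rats were tightly grouped, and S replicate 1 lay above all of them. Its log2 difference was 0.17 (95% interval -0.045 to 0.38), or 0.083 without S replicate 2 and 0.27 without S replicate 1 (at unadjusted p below 0.05, limma), and a further probe set of the gene gave 0.17. The mitochondrial counterparts Txn2 and Txnrd2 had -0.039 (0.032 with median centring) and 0.064.

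Peroxiredoxins, which reduce peroxides at a reactive cysteine, showed small differences of either sign. Prdx6, which is recharged by glutathione rather than thioredoxin, had the lowest log2 difference of them. It was still counted in the thioredoxin branch with the other peroxiredoxins, as 1 of the 3 negative genes there. Prdx6 read 5871, 6397 and 7274 in S rats and 6197, 5216 and 5728 in congenic rats. S replicate 3 was the highest rat, and congenic replicates 2 and 3 were the lowest. The log2 difference was -0.19 (95% interval -0.39 to 0.012; limma, unadjusted p = 0.0639, adjusted p = 0.507). Without S replicate 1 or congenic replicate 1 it was -0.26 or -0.25, at unadjusted p = 0.0181 and 0.0251 (limma), and without S replicate 3 or congenic replicate 2 it was -0.10 or -0.12. For Prdx5 the groups did not overlap, with 8057, 8168 and 7917 in S rats and 7629.6, 7717 and 7799 in congenic rats, yet the log2 difference was only -0.061 (95% interval -0.21 to 0.091), and it was 0.00986 with median centring. Prdx2, Prdx3 and Prdx4 had 0.061, 0.040 and 0.099, of which Prdx3 alone turned negative, after cyclic loess. Srxn1, sulfiredoxin, which revives overoxidised peroxiredoxins, had 0.17, and a further probe set of it above the filter had 0.14.

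Msra, methionine sulfoxide reductase A, repairs oxidised methionine with electrons from thioredoxin. It read 3209, 3229 and 4122 in S rats and 3986, 4083 and 3949 in congenic rats. S replicate 3 lay above all congenic rats and the other 2 S rats lay well below them. Its log2 difference was 0.20 (95% interval -0.011 to 0.40), and without S replicate 3 it was 0.32 (unadjusted p = 0.00289, limma).

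The superoxide dismutases differed in sign. Sod2, the manganese enzyme of the mitochondrial matrix, read 4694, 5404 and 6185 in S rats and 4579, 4149 and 3899 in congenic rats. Every congenic rat lay below every S rat, and the highest congenic rat was close to the lowest S rat. The means were 5428 ± 746 (SD, n = 3) and 4209 ± 344 (SD, n = 3), a ratio of 0.78, and the log2 difference was -0.36 (SE 0.10; limma, unadjusted p = 0.00278, adjusted p = 0.250). It ran from -0.46 without S replicate 1 to -0.26 without S replicate 3. Sod1, the cytosolic copper-zinc enzyme, read 24322, 21774 and 24463 in S rats and 22973, 26353 and 30615 in congenic rats. Congenic replicates 2 and 3 were the highest and congenic replicate 1 lay within the S range, and the log2 difference was 0.17 (95% interval -0.041 to 0.39). It was 0.067 without congenic replicate 3 and 0.27 without congenic replicate 1 (unadjusted p = 0.00806, limma), and 0.084 after cyclic loess. Sod3, the extracellular enzyme, had means of 7855 ± 1165 and 8095 ± 845, with a log2 difference of 0.049 that was -0.00971 after cyclic loess. Catalase, the peroxisomal enzyme encoded by Cat, read 16049, 18249.6 and 19738 in S rats and 15368, 17887 and 16799 in congenic rats, which overlapped, with a log2 difference of -0.11 (95% interval -0.30 to 0.086). Leaving out S replicate 1 gave -0.19, S replicate 3 gave -0.039 and congenic replicate 1 gave -0.050. The title number block gave -0.065, and after quantile normalisation it was -0.18 (unadjusted p = 0.0353, limma).

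The regulators of the antioxidant response overlapped between strains. Nfe2l2, the NRF2 gene, read 3066, 3499.8 and 3403 in S rats and 2909.7, 3079.7 and 3455 in congenic rats, with a log2 difference of -0.079 (95% interval -0.27 to 0.11). It ran from -0.15 without congenic replicate 3 to -0.024 without congenic replicate 1, with -0.14 without S replicate 1 and -0.041 without S replicate 2, and it was -0.016 with the title number block. Keap1, its cytosolic inhibitor, read 579, 423 and 591 in S rats and 646, 552 and 555 in congenic rats. The log2 difference of Keap1 was 0.15, a further probe set gave -0.23, and the mean of both gave -0.042; without S replicate 2 it was -0.00660, without S replicate 3 0.23 and without congenic replicate 1 0.075. Nqo1, a quinone reductase and a classical NRF2 target, read 421, 382 and 326 in S rats and 376, 367 and 316 in congenic rats, with a log2 difference of -0.089 (95% interval -0.44 to 0.26). It ran from -0.19 without S replicate 3 to -0.00465 without S replicate 1, with -0.14 without congenic replicate 1 and -0.010 without congenic replicate 3. These signals report transcript levels, whereas NRF2 is controlled largely through protein stability.

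Naxd encodes the dehydratase that repairs a damaged, hydrated form of NADH and NADPH. Its signals were 454, 403 and 339 in S rats and 633, 538 and 652 in congenic rats. Every congenic rat lay above every S rat. The means were 399 ± 57.5 (SD, n = 3) and 607 ± 61.2 (SD, n = 3), a fold of 1.52, and the log2 difference of 0.61 with a standard error of 0.15 was the largest among the members above the filter (limma, unadjusted p = 0.00112, adjusted p = 0.210). A further probe set of Naxd read 171 ± 19.4 and 191 ± 54.2, overlapped between strains and had 0.13, and the mean of both probe sets gave 0.37 (unadjusted p = 0.0604, limma). Selenop, the plasma carrier of selenium on which selenium-dependent peroxidases rely, had means of 36783 ± 2786 and 35019 ± 2672, a log2 difference of -0.071. Quantile normalisation moved this value to -0.16, cyclic loess to -0.17 and median centring to -2.83e-04. Selenop joined the members at unadjusted p below 0.05 (limma), as a lower one, with quantile or cyclic loess normalisation. The mean of its probe sets also brought it in, whereas median centring did not. A further probe set of Selenop read 377, 392 and 667 in S rats and 357, 346 and 243 in congenic rats, all congenic values lower, with a log2 difference of -0.57 (limma, unadjusted p = 0.0211, adjusted p = 0.395).

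Of the 54 genes, 9 had more than 1 probe set with a single symbol. Their 10 further probe sets included 7 above the filter, from 7 genes, and 5 of these 7 had the sign of the probe set chosen. For Gclc both probe sets gave nearly the same value, 0.15 and 0.16. Glrx and Keap1 were the genes whose probe sets above the filter disagreed in sign. A dim further probe set of Gpx4 read 178, 113 and 145 in S rats and 68.6, 81.9 and 95.1 in congenic rats, all congenic values lower, below the filter and opposite in sign to the probe set described above. A dim further probe set of Gstt2, also below the filter, read 105, 135 and 132 in S rats and 145, 205 and 186 in congenic rats, all congenic values higher. Without detection calls, neither could be told from background.

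Set side by side, the glutathione branch had a median log2 difference of 0.050 over 27 genes above the filter, 18 positive and 9 negative, which became 12 positive and 15 negative after quantile normalisation or cyclic loess. The thioredoxin branch had a median of 0.081 over 12 genes, among them Prdx6, which is recharged by glutathione. The 9 other antioxidant genes had a median of -0.071, with 4 positive and 5 negative, and the median was -0.040 after quantile normalisation, -0.043 after cyclic loess and -2.83e-04 with median centring. Over all probe sets tested the median was -0.00869, and 48.2% were positive. The difference between the branches was not tested. For each rat, the median deviation of the branch from the 6-rat mean was taken on the log2 scale. In the glutathione branch it was -0.034, -0.049 and 0.016 in S rats and 0.00888, 0.050 and 0.00609 in congenic rats, so that S replicate 3 lay above congenic replicates 1 and 3. In the thioredoxin branch it was 0.012, -0.049 and -0.098 in S rats and 0.043, 0.064 and 0.022 in congenic rats. These did not overlap, but with little room between the highest S and the lowest congenic rat. Of single probe sets tested, 7.98% had all 3 congenic values above all 3 S values. The values per rat were taken under the reported scaling alone.

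The differences depended on signal strength over the whole array. Tested probe sets with a mean signal under 1000 had a median log2 difference of -0.038 and 42.9% were positive. Those from 1000 to 5000 had a median of 0.027, and the 827 over 5000 had a median of 0.062, with 71.2% positive. Many members are bright: 23 of the 48 had a mean signal over 5000, and of these 17 were positive, with a median of 0.050, close to that of all probe sets as bright. The 12 members under 1000 had a median of 0.071 and the 13 between had 0.00751. After quantile normalisation the medians of the 3 signal ranges over all tested probe sets were 0.00166, 0.00968 and 0.00697, and the median of the glutathione branch was -0.00801. After cyclic loess it was -0.00634, and with arrays centred on the median it was 0.12. The thioredoxin branch had 0.054, 0.052 and 0.15 under these 3 settings.

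**Figure D3:**
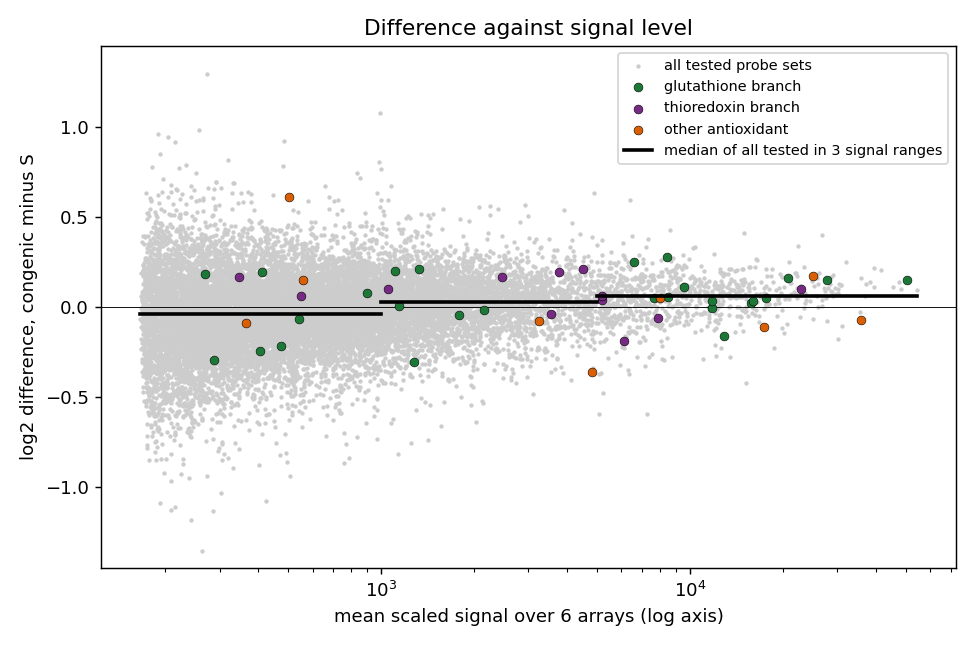
Log2 difference between congenic and S kidneys (y axis) against the mean scaled signal over 6 arrays (x axis, log scale) for all 15521 probe sets tested (grey) and the 48 members (coloured by branch), with black lines at the median of all tested probe sets under 1000, from 1000 to 5000 and over 5000. The black lines step up from -0.038 to 0.027 and 0.062, and the brightest members scatter around the last of them.

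**Figure D4:**
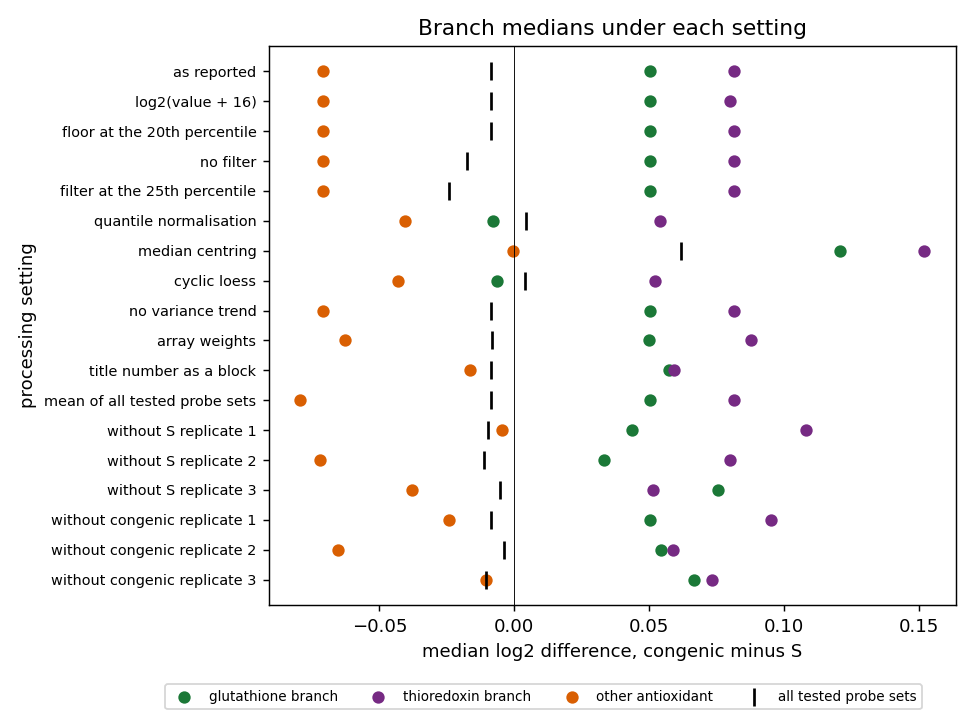
Median log2 difference between congenic and S kidneys (x axis) of the 3 groups of members and of all tested probe sets (black bars) under each processing setting (y axis). The glutathione median lies at 0.050 as reported, just below 0 after quantile normalisation and cyclic loess, and at 0.12 with median centring, while the thioredoxin median stays between 0.052 and 0.15.

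Other genes of the same pathways were examined in 8 lists. None of them passed at adjusted p 0.05 in limma, and higher and lower below mean an unadjusted p below 0.05. Each gene named as higher or lower kept its sign under the 3 other scalings. Among genes that supply, salvage and export glutathione, 19 lay above the filter, 5 of them higher and 1 lower by the unadjusted test in limma. The mitochondrial dicarboxylate carrier gene Slc25a10, whose product has been linked to glutathione import, read 6436, 6267 and 6265 in S rats and 8613, 6894 and 9324 in congenic rats, all congenic values higher, a log2 difference of 0.38 (limma, unadjusted p = 0.00171, adjusted p = 0.229). The dipeptidase gene Cndp2, which splits the cysteinylglycine released from glutathione, had 0.21, the brush border aminopeptidase gene Anpep 0.21 and the efflux pump gene Abcc4 0.29. The remaining 2, named after their values were seen, were the mitochondrial carrier gene Slc25a11 with 0.18 and, as the lower one, Ggct, the gamma-glutamylcyclotransferase of the same cycle, with -0.19. The median of the list was 0.088, with 14 positive and 5 negative, against -0.00869 over all probe sets tested, and these 6 genes were 31.6% of it, against 10.3%. Among probe sets over a signal of 5000, 17.0% had such a p. The 6 calls became 4 higher and 1 lower after quantile normalisation, 3 and 1 after cyclic loess, and 7 and 0 with median centring. A further mitochondrial carrier gene of the list, Slc25a39, had a log2 difference of 0.00590 (limma, unadjusted p = 0.944). After quantile normalisation it was -0.037 and after cyclic loess -0.050. The list shares Slc3a1 and Slc7a9 with the proximal tubule markers below, and their part in its median was not tested.

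Of 15 genes above the filter that supply NADPH, 2 had an unadjusted p below 0.05 in limma, both with higher congenic signals. They were Aldh1l1, the folate enzyme that yields NADPH, with means of 3822 ± 827 in S and 4981 ± 150.4 in congenic kidneys, and Taldo1 of the pentose phosphate pathway, with 3789.9 ± 253 and 4478 ± 262. Of 15 other glutathione-using enzymes, 1 was lower, the glutaredoxin gene Glrx3 (-0.25), and 0 were higher. Of 18 other thioredoxin-fold proteins and partners, 1 was higher, Msrb1 (0.19), the selenoprotein that repairs the other form of methionine sulfoxide that Msra leaves. Of 11 further NRF2 targets, 2 were higher, the biliverdin reductase gene Blvra (0.28) and Osgin1 (0.22). Of 9 NRF2 partners, 1 was higher, the kinase gene Gsk3b (0.51). Of 16 genes for selenoproteins and for selenoprotein synthesis and selenium uptake, Sephs2, which makes the selenium donor, was higher (0.25) and Selenon lower (-0.38). Of 10 sources of superoxide and peroxide, 0 passed at unadjusted p 0.05 in limma. The shares of these 7 lists at unadjusted p below 0.05 (limma), in the order given, were 13.3%, 6.67%, 5.56%, 18.2%, 11.1%, 12.5% and 0%. Over all probe sets tested the share was 10.3%. The medians of these 7 lists, in the order given, were 0.11, 0.055, 0.083, 0.10, 0.12, -0.020 and 0.11, and the sign of the selenoprotein median turned with median centring (0.050).

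The arrays carried the markers of kidney: all 18 proximal tubule, all 10 collecting duct and all 5 measured podocyte markers lay above the filter. Of 5 liver markers 1 did, and of 4 adrenal markers 2 did. Because much of the glutathione system is expressed in proximal tubule, the markers of that segment are given here. Of 18, 15 were positive, with a median log2 difference of 0.14 (all probe sets over a signal of 5000, 0.062). An unadjusted p below 0.05 was found for 5 (27.8%), all 5 with higher congenic signals (limma, smallest adjusted p = 0.276). Of all probe sets tested 10.3% had such a p, and of those over a signal of 5000, 17.0%. The summed signal of the 18 markers ran from 242357 to 269792 in S rats and from 271939 to 299762 in congenic rats. These did not overlap, but with little room between the groups. Of single probe sets tested, 7.98% had all 3 congenic values above all 3 S values. The sum of the 18 markers was taken on the linear scale, where the brightest weigh most, and was not repeated under the other scalings. Under the 3 other scalings 15 to 17 were positive, with medians of 0.060 to 0.21, and those at unadjusted p below 0.05 were 4 higher and 1 lower after quantile normalisation, 2 and 1 after cyclic loess, and 12 and 0 with median centring. Of 8 markers of the loop of Henle and distal tubule above the filter, 2 were positive and 6 negative. An unadjusted p below 0.05 in limma was found for 4 (50%, against 10.3% of all probe sets tested), with Umod higher and Slc12a1, Cldn8 and Cldn10 lower. The part of these markers in the values of any member, higher or lower in congenic kidneys, was not tested. Red cells are rich in catalase, Prdx2 and Gpx1. The 4 measured red cell markers had summed signals of 17169 to 23742 in S and 12048 to 18513 in congenic rats, which overlapped. Of these, 3 lay above the filter, all 3 negative under all scalings. Of the 3, Hbb and Alas2 had an unadjusted p below 0.05 in limma (66.7%, against 10.3% of all probe sets tested), and Slc4a1 is also counted as a collecting duct marker. Hbb, a beta-globin gene, read 17383 ± 3442 and 13112 ± 3322. The log2 difference was -0.11 for Cat, 0.061 for Prdx2 and 0.16 for Gpx1. The part of the red cell markers in the values of these 3 genes was not tested. The arrays had median signals of 162 to 178.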

How the data were processed

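The deposited values are scaled signal intensities on a linear scale, 1 per probe set and array, computed by the authors with GCOS 1.4 per the submitters' processing notes, whose settings and detection calls the sources used here do not give. Each array had a trimmed mean of about 500.0, so scaling preceded deposit. Of 31099 probe sets, 57 controls were left out. Signals under the 10th percentile (12.3) were raised to it, and log2 of the deposited intensity was taken with no further normalisation. Platform annotation gave a single symbol for 20826 probe sets, more than 1 for 436 and no symbol for 9780.

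The 15521 probe sets with a mean log2 above the median were fitted with limma 3.58.1 in R 4.3.3 (eBayes with an intensity trend), as congenic minus S; p-values were adjusted over all of them by Benjamini-Hochberg. Values of probe sets under the filter came from a fit of all probe sets. P-values set the difference against the spread between these 6 rats, which eBayes combines with the spread of other probe sets of like signal (10.7 prior degrees of freedom). The number of arrays limits the precision. Members and lists were chosen with earlier results of these data known, so no test over the list is given. Rat-by-rat values are given for members at unadjusted p below 0.05, the 8 next by p and a set of key enzymes and regulators; other lists are represented by at most 4 genes of smallest p. Prdx5, a Selenop, a Gpx4 and a Gstt2 probe set, and Slc25a11, Slc25a39 and Ggct of the salvage list, were added after their values were seen. The procedure was tested on simulated data. Promoter windows and current symbols came from RefSeq, GRCr8. Python 3.11.15 with pandas 2.3.3 read the windows, and matplotlib 3.10.9 drew the plots.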

Additional observations from a re-analysis of the deposited data

How the results depend on the processing

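Under all 17 alternatives, 0 members passed limma's adjusted p of 0.05, against 6 at unadjusted p in the reported fit, and the smallest adjusted p of a member was 0.0733 (Sod2, without S replicate 1). The count at unadjusted p below 0.05 was 10 with quantile or cyclic loess normalisation (9.7% of all probe sets tested) and 14 with median centring (12.0%). It ran from 4 to 13 over the 6 fits without 1 rat, where 7.35% to 12.5% of all probe sets tested had such a p. The higher share of these calls was 66.7% as reported, 92.9% with median centring, 83.3% with no filter and 50% with the mean of probe sets; with quantile or cyclic loess normalisation (40%) and array weights (50%) there were 4 higher calls as before, and more lower ones. The glutathione median was -0.00801 after quantile normalisation, -0.00634 after cyclic loess and 0.12 with median centring, and 0.033 to 0.076 without 1 rat. The thioredoxin median was 0.15 with median centring and 0.052 to 0.11 without 1 rat, and that of the other antioxidant genes was -0.072 to -0.00465 without 1 rat. Of the 23 genes followed, 4 changed sign: Gpx3 (quantile normalisation, -0.00801), Gpx4 (quantile normalisation, -0.014; cyclic loess, -0.035; -0.010 to 0.076 without 1 rat), Gsr (title number block, -0.027; -0.12 to 0.072 without 1 rat) and Keap1 (mean of probe sets, -0.042; -0.00660 to 0.23 without 1 rat). The cause was not tested. Median centring moved the median of all tested probe sets from -0.00869 to 0.062. No paired analysis was possible because the labels give the groups no shared replicate numbers.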
